A study of Mus musculus with 661 samples.

Results

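The 10 genes described here encode the TGF-beta ligands (Tgfb1, Tgfb2 and Tgfb3), their receptors (Tgfbr1, Tgfbr2 and Tgfbr3) and the latent TGF-beta binding proteins (Ltbp1, Ltbp2, Ltbp3 and Ltbp4). They were taken by gene symbol from the 45808 genes of the deposited count table, with earlier results of these data known. All 10 passed the filter on low counts in every comparison. The study asked how the stromal niche of the bone marrow differs between young and old mice, and profiled sorted single cells by a plate-based method derived from Smart-Seq2. Mice were C57BL/6 wild type animals of both sexes, aged about 2 months (336 cells) or about 24 months (325 cells). All populations were sorted as Ter-119- and CD45- cells after collagenase digestion. From crushed bone chips (endosteum) came MSC-S (Sca-1+ CD51+), OPr (PDGFRα- LepR-), mOPr (PDGFRα+ LepR-) and arteriolar endothelial cells (AEC, CD31+ with high Sca-1 and low CD105). From flushed marrow came MSC-L (PDGFRα+ LepR+) and sinusoidal endothelial cells (SEC, CD31+ with low Sca-1 and high CD105). Young and old cells numbered 53 and 58 for MSC-L, 59 and 59 for MSC-S, 44 and 29 for OPr, 26 and 26 for mOPr, 84 and 82 for AEC, and 70 and 71 for SEC.

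The paper gives several mice at each age for these cells, but the labels name no mouse. Each population at each age was therefore treated as 1 pooled sample. A difference between ages cannot be told apart from a difference between mice, and no test was made. Levels are CPM, the counts of the summed cells scaled to their nuclear total, and their 95% intervals cover counting error alone, since reads were amplified by PCR and carried no molecular identifiers. A cell was taken to carry a gene at 10 CPM or more. Depth ran from 58034 to 1503374 counts per cell with a median of 425611, so shares of cells are also given after thinning each cell to 100000 counts (at least 1 count). Library numbers of the cells fall in 3 ranges with 170, 303 and 188 cells, and all SEC lie in range 3 beside 47 AEC. Values within ranges are therefore given beside called differences. A difference between ages that was not called is followed by its range values where one of them passed 2-fold, and by the value without the top cell at each age where that moved it by over 1.5 times. A difference between ages was called at 2-fold or more when it had the same direction in all ranges holding 5 or more cells per age, and also after the top cell at each age was left out. A difference between cell types was called at 2-fold or more when the values of all ages and ranges did not overlap.

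Endothelial and MSC-L markers fitted the sort labels of young cells, and other marker lists did so less. The 10 endothelial markers summed to 10646 and 10574 CPM in young and old AEC and to 9774 and 10857 CPM in young and old SEC, with Cldn5 the most abundant, against at most 75.9 CPM in a mesenchymal population. The 6 MSC-L markers, led by Cxcl12, summed to 57360 and 47105 CPM in young and old MSC-L. The 6 osteoprogenitor markers summed to more in young and old MSC-L (11374 and 7327 CPM) than in OPr (3480 and 3688 CPM), and the 6 MSC-S markers, led by Ly6a, to more in AEC (3838 and 4266 CPM) than in MSC-S (2476 and 3312 CPM). Old endosteal progenitors departed from their labels: the sum of MSC-L markers was 5589 CPM in young and 22695 CPM in old OPr, and 998 CPM in young and 21133 CPM in old mOPr. Of 29 old OPr cells, 8 carried at least 8 of 15 hematopoietic markers, and all 8 belong to the deposited cluster M5. In old OPr all 15 of these markers had counts, summing to 11156 CPM with S100a9 the most abundant at 4041 CPM, against 25.8 CPM in young OPr. Log2 differences of members between ages in OPr, and calls in gene lists, are therefore given with and without those 8 cells, and other OPr values include them.

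TGF-beta is secreted in a latent form, held inactive by its own propeptide, and a latent binding protein tethers that complex to the extracellular matrix until integrins, proteases or thrombospondin release the ligand. Free ligand is bound by the type II receptor, which phosphorylates the type I receptor, and the type I receptor then activates SMAD transcription factors. In bone the matrix is a large store of latent TGF-beta, which is released as bone is resorbed, and in marrow the ligand is known for holding hematopoietic stem cells quiescent and for its release from megakaryocytes.

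Among the ligands, Tgfb1, the form abundant in platelets and bone matrix, was highest in SEC. Its level was 194 CPM in young and 265 CPM in old SEC, and no value of another population reached these (53.8 to 160 CPM over the 6 values of AEC, the next in order). OPr, MSC-S, mOPr and MSC-L followed AEC at 69.6, 59, 54.6 and 36.3 CPM over both ages, and each overlapped its neighbour in that order. Tgfb1 was the ligand carried by most cells, 390, against 171 for Tgfb2 and 183 for Tgfb3. Its share of carrying cells was 84.4% in SEC and 27% in MSC-L (88.6% and 33% thinned).

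Tgfb2, the ligand that depends most on the co-receptor betaglycan to reach the signaling receptors, had a different order of levels. MSC-S (95.4 CPM), AEC (75.9 CPM), OPr (74.9 CPM) and mOPr (63.6 CPM) overlapped in turn. SEC (24.8 CPM) and MSC-L (16.7 CPM) overlapped each other as well as AEC (10.7 to 99.8 CPM) and OPr (0.232 to 160 CPM), while the values of SEC (3.74 to 47 CPM) did not reach those of mOPr (50.5 to 109 CPM). Tgfb3, the remaining ligand, ran from 128 CPM in MSC-S through mOPr (88.7 CPM), OPr (85.4 CPM), MSC-L (49.7 CPM) and AEC (40.5 CPM) to 17.9 CPM in SEC, and every neighbour in that order overlapped. In old AEC 84.3% of the Tgfb3 counts lay in 1 cell at 5076 CPM, so the AEC level rested on few cells.

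The type I receptor Tgfbr1, the kinase that phosphorylates SMAD proteins, had overlapping levels across populations. Over both ages it was 110 CPM in mOPr, 110 CPM in MSC-S, 63.4 CPM in AEC, 47.1 CPM in MSC-L, 45.4 CPM in OPr and 32.8 CPM in SEC, with overlap between all neighbours. The type II receptor Tgfbr2, which binds the ligand first, was highest over both ages in the endothelial cells, at 553 CPM in SEC and 398 CPM in AEC. MSC-S (333 CPM), mOPr (186 CPM), OPr (178 CPM) and MSC-L (114 CPM) came next, again with overlap between neighbours. Tgfbr3, which encodes betaglycan, was highest in MSC-L, where its 4 values of 629 to 1009 CPM lay above every value of SEC (405 to 462 CPM), the next in order. SEC, OPr, mOPr, MSC-S and AEC then overlapped in turn, from 434 CPM down to 142 CPM over both ages. Betaglycan was carried by 98.2% of MSC-L (98.2% thinned) and by 58.4% of AEC (63.6% thinned), and it was the member carried by most cells (543).

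Between the highest and the lowest population, levels over both ages differed most for latent binders. Ltbp1, which tethers latent complexes of all 3 ligands to matrix fibers, was 593 CPM in MSC-L, 408 CPM in MSC-S, 350 CPM in mOPr and 217 CPM in OPr over both ages, and 79.1 and 68.9 CPM in SEC and AEC. Neighbours in that order overlapped throughout. Ltbp2, a family member that does not bind the latent ligands and works in elastic and microfibril assembly, had its highest level in MSC-L (534 to 1066 CPM), above mOPr (263 to 348 CPM), the next in order, but overlapping OPr (103 to 549 CPM). This gene was nearly absent from AEC at 2.15 CPM over both ages, where the values of 0.274 to 12.9 CPM did not reach those of SEC (18.1 to 63.6 CPM) but overlapped those of MSC-S (9.19 to 180 CPM). OPr, MSC-S and SEC lay between, at 293, 117 and 41.5 CPM. Ltbp3, which helps latent ligand to leave the cell, ran from MSC-S (357 CPM) through mOPr (210 CPM), MSC-L (119 CPM) and OPr (115 CPM), which overlapped in turn. SEC (60.3 CPM) and AEC (27.6 CPM) followed and overlapped each other, and the SEC values of 52.7 to 67.6 CPM did not meet the OPr values of 73.5 to 164 CPM but overlapped those of mOPr (54.2 to 357 CPM) and AEC (10.3 to 78.2 CPM). Ltbp4, which binds latent Tgfb1 product and also guides elastic fiber assembly, marked AEC. Its AEC values (1456 to 2336 CPM) lay above those of MSC-S (581 to 1094 CPM), SEC (346 CPM) and mOPr (303 CPM), which overlapped in turn, and OPr (41.4 CPM) and MSC-L (26.7 CPM) lay apart below. MSC-L and AEC thus held different binder transcripts, Ltbp1 and Ltbp2 in the first and Ltbp4 in the second.

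**Figure D1:**
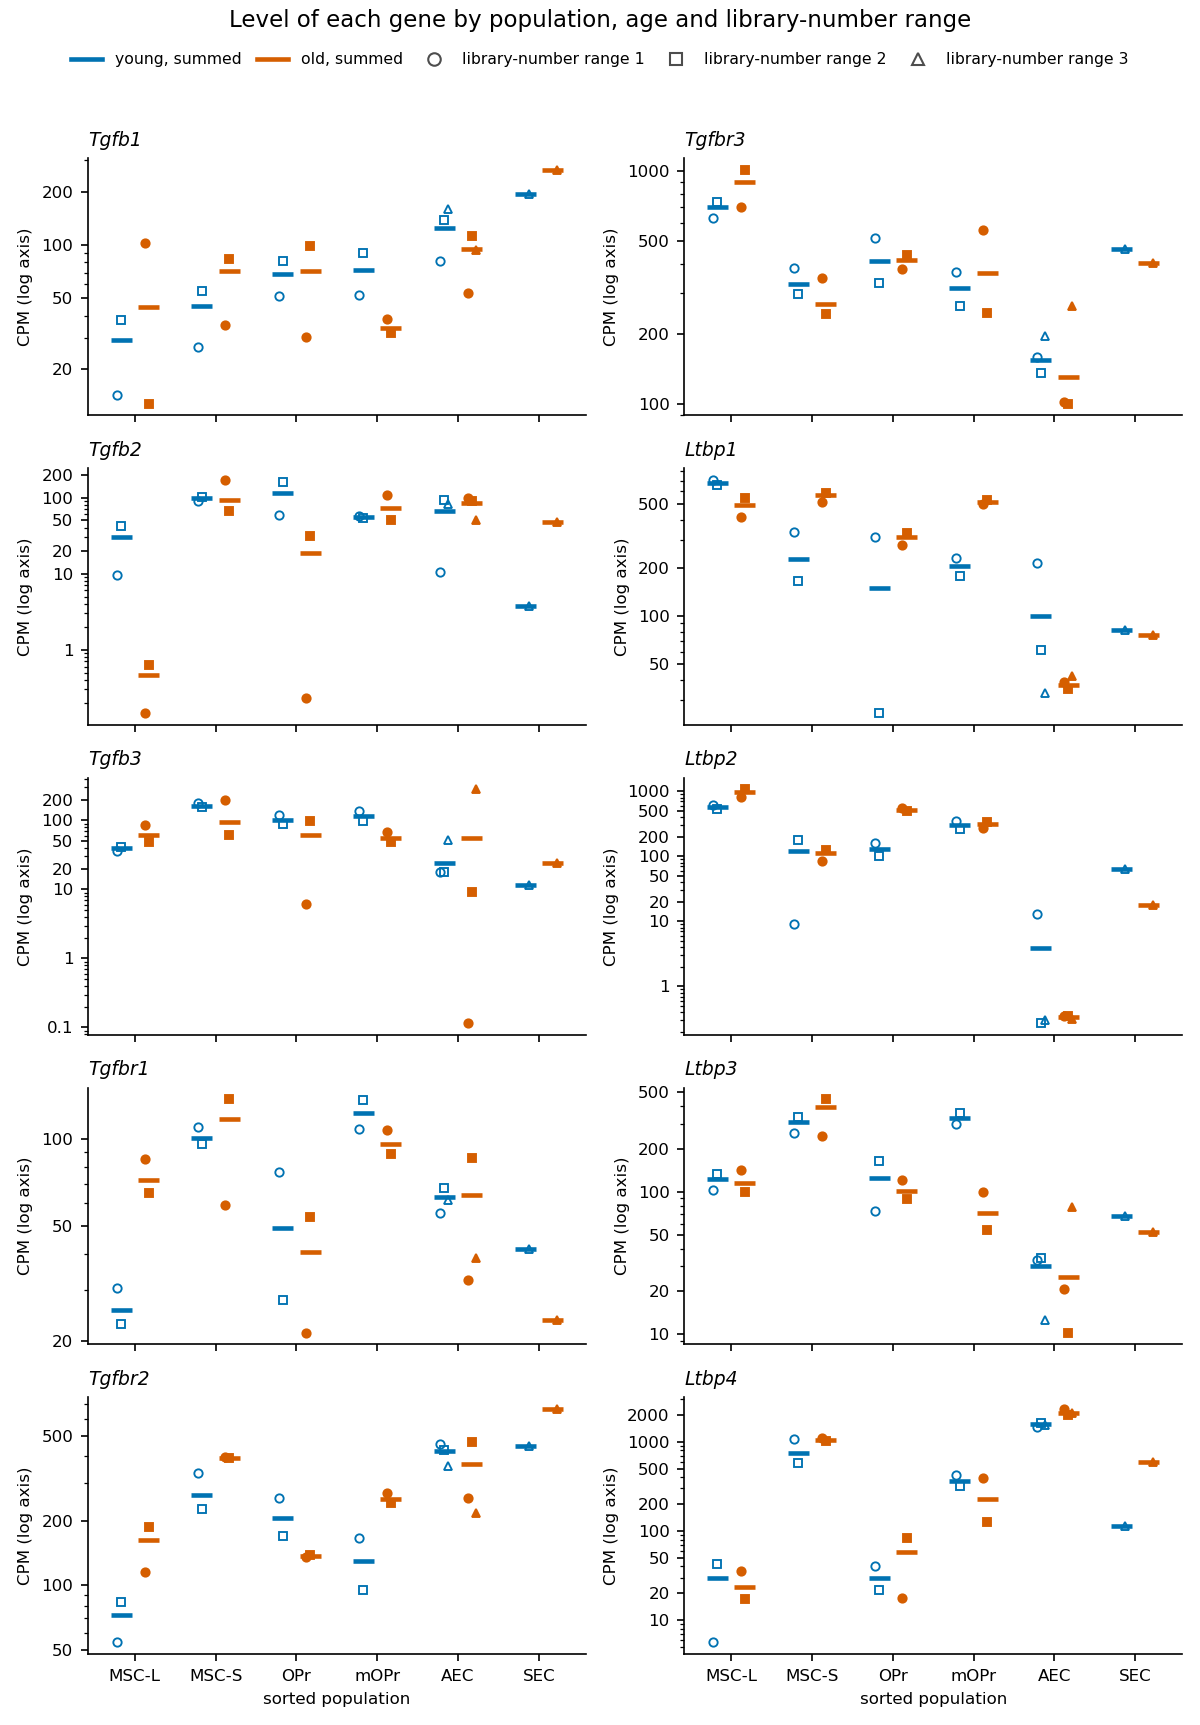
Level of each of the 10 genes (CPM, log axis) in every population at each age, as the sum over cells and within each library-number range of at least 5 cells. Tgfb2 in MSC-L and Ltbp4 in SEC are among the cases where the ages stand apart.

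Levels per kb of exon allow the genes to be compared with each other. Among ligands Tgfb1 made up 90.4% of the summed level per kb in young and 77.3% in old SEC, whereas Tgfb3 led in MSC-S with 65.3% and 48.5%. Tgfb2 gave 23.2% of the ligand level per kb in young MSC-L and 0.293% in old MSC-L, where Tgfb3 gave 51.2% and 67.2%. In the sums Tgfb3 led in every mesenchymal population and Tgfb1 in SEC at each age. Within ranges the order turned in OPr: Tgfb1 gave 76.4% and Tgfb3 23.1% in old cells of range 1, and Tgfb2 gave 39.3% and Tgfb3 37.7% in young cells of range 2. The ligand sum per kb was lowest in MSC-L, at 22.7 in young and 27.2 in old cells, and highest in young MSC-S (74.3) and old SEC (67.8 CPM per kb). Among receptors Tgfbr3 made up 89.3% of the level per kb in young and 81.7% in old MSC-L, while Tgfbr2 led in AEC with 61% and 60.4%, except in old cells of range 3, where Tgfbr3 gave 55.1% and Tgfbr2 36.7%. Betaglycan transcripts thus outweighed those of the signaling receptors in MSC-L, and not only there. Tgfbr3 also gave 65.7% and 73.3% in young and old OPr and 58.2% and 55.1% in young and old mOPr. It gave 51.2% in young and 38.3% in old MSC-S, and 53.7% in young and 42.1% in old SEC. Among latent binders Ltbp4 made up 94.9% and 98.1% of the level per kb in young and old AEC, and Ltbp2 made up 46% and 65.4% in MSC-L. In SEC the Ltbp4 part was 43.4% in young and 85.8% in old cells, with sums over the 4 binders of 40.3 and 107 CPM per kb.

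**Figure D2:**
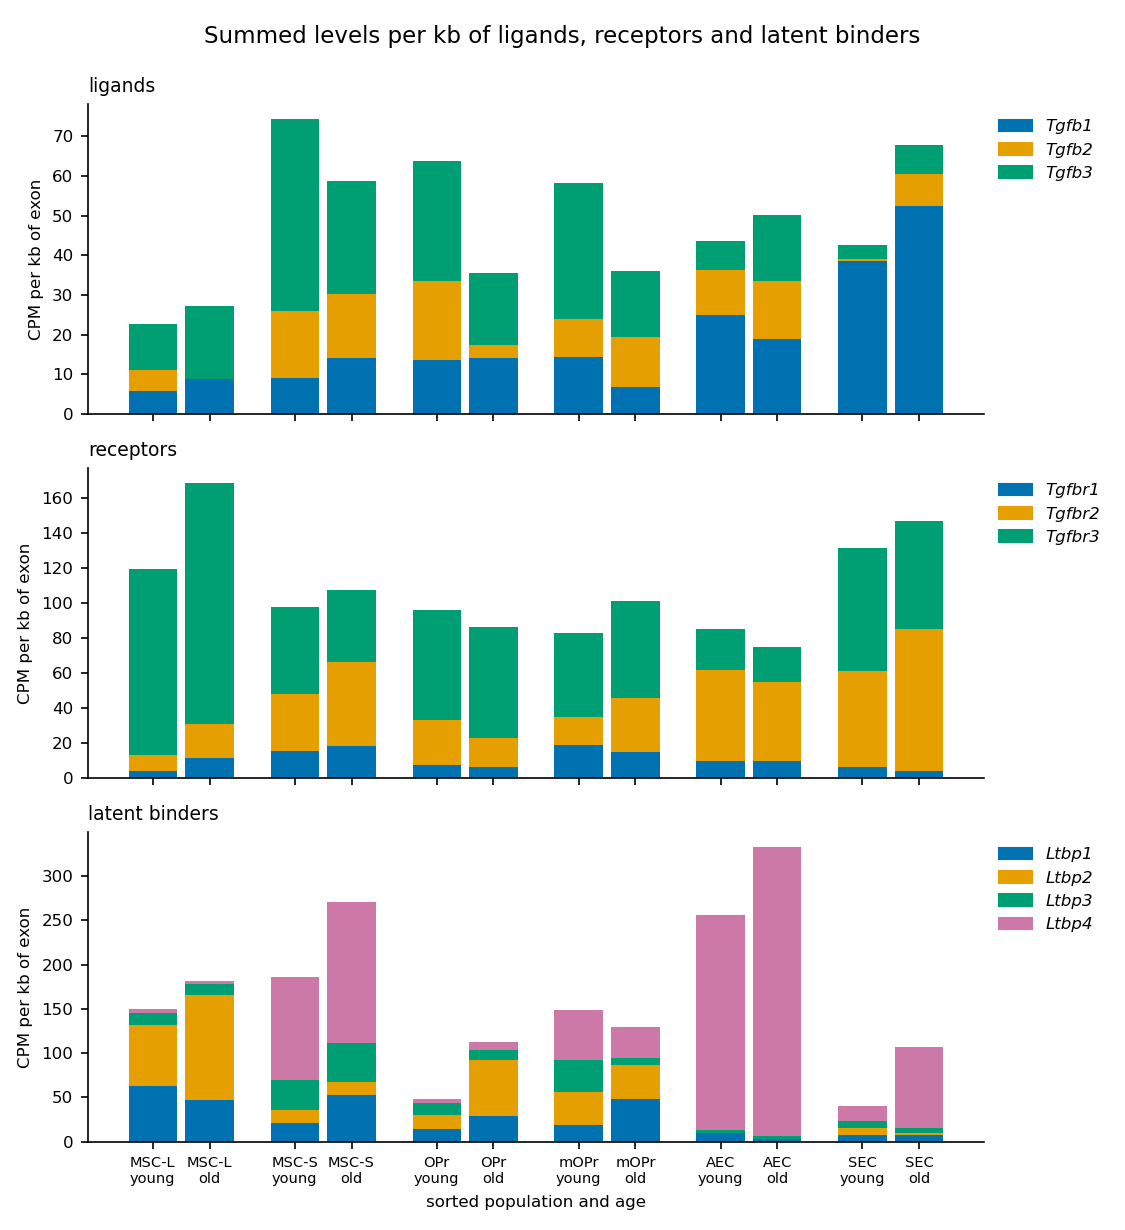
Summed level per kb of exon of the ligands, receptors and latent binders in each population at each age, split by gene. Tgfbr3 leads among receptors in MSC-L, OPr and mOPr at each age, and Ltbp4 leads among latent binders in AEC.

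At the level of single cells the members were carried in different combinations. Of all cells 5 carried none of the 10 genes, and 10 was the most that a cell carried. At least 1 ligand was carried by 55.9% of MSC-L, 89% of MSC-S, 68.5% of OPr, 84.6% of mOPr, 81.9% of AEC and 88.7% of SEC (63.3, 90.7, 74.3, 80.8, 84.8 and 92.1% thinned). Transcripts of Tgfbr1 and Tgfbr2, which work as a complex, were carried together by 61% of MSC-S and 17.1% of MSC-L (64.4% and 13.8% thinned). All 111 MSC-L and all 118 MSC-S carried at least 1 latent binder, as did 98.1% of mOPr and 97.6% of AEC, against 74.5% of SEC and 75.3% of OPr (96.2, 99.4, 81.4 and 85.7% thinned). No MSC-L carried all 3 ligands (upper limit, as 3 of 111 cells, 2.70%), whereas 17.8% of OPr did (18.6% against 0% thinned). The OPr shares differed by age: 81.8% of young and 48.3% of old OPr carried a ligand, 88.6% and 55.2% a latent binder and 27.3% and 3.45% all 3 ligands, with the 8 hematopoietic-marker cells among the old.

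The 2 mesenchymal stromal populations, marrow MSC-L and endosteal MSC-S, differed in 6 of the 10 members. MSC-L held more betaglycan and Ltbp2. MSC-S held more Tgfb2, Tgfbr2, Ltbp3 and Ltbp4. Of 15650 genes tested, 13.5% were called higher in MSC-L and 7.72% higher in MSC-S, against 2 and 4 of the 10 members, and the difference between these shares was not tested. The median log2 difference of the members was -1.28, against 0.38 for all tested genes.

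Of the ligands only Tgfb2 was called: its 4 values in MSC-L were 9.64 and 42.2 CPM in young and 0.146 and 0.634 CPM in old cells, and those of MSC-S 89.3, 102, 171 and 67.2 CPM (log2 -2.45). Every MSC-S value of this ligand lay above every MSC-L value. Tgfbr2 values ran from 54.1 to 188 against 226 to 399 CPM in MSC-L and MSC-S (log2 -1.54), and Tgfbr3 values from 629 to 1009 against 243 to 385 CPM (log2 1.41). The ligand-binding receptor and its co-receptor were thus higher in different populations. For the binders, Ltbp2 ran from 534 to 1066 against 9.19 to 180 CPM in MSC-L and MSC-S (log2 2.68), Ltbp3 from 101 to 143 against 248 to 449 CPM (log2 -1.57) and Ltbp4 from 5.61 to 42.5 against 581 to 1094 CPM (log2 -5.03). Ltbp4 gave the largest difference of the 10 genes between these populations. Values of Tgfb1 (log2 -0.69), Tgfb3 (-1.35), Tgfbr1 (-1.20) and Ltbp1 (0.54) overlapped and were not called. With median-of-ratios scaling the median of all genes moved by -0.44, the higher part of all calls went from 63.6% to 53.3%, and Tgfbr3 was no longer called (log2 0.93).

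Arteriolar and sinusoidal endothelium also differed, compared within range 3 alone (47 AEC and 141 SEC). AEC held more Tgfb2, Tgfb3 and Ltbp4. SEC held more Ltbp1 and Ltbp2. Of 14042 genes tested, 10.7% were called higher in AEC and 18.1% higher in SEC, against 3 and 2 of the 10 members, and the median log2 difference was -0.62 for members and -0.10 for all tested genes.

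Ltbp4 was 1559 and 2097 CPM in young and old AEC against 113 and 592 CPM in SEC (log2 2.40). Ltbp2 showed the reverse, with 0.309 and 0.314 CPM in young and old AEC against 63.6 and 18.1 CPM in SEC (log2 -5.02), and Ltbp1 followed it with 33.1 and 42.4 against 81.5 and 76.7 CPM (log2 -1.05). The AEC values of Ltbp2 rest on few counts, 50% of them in a single cell at each age. Its log2 difference ran from -6.66 to -2.63 under other settings. Cells of the doublet cluster E1 held 441 CPM of Ltbp1 and 314 CPM of Ltbp2. By cluster in place of gate, still within range 3, Ltbp1 was 21.1 CPM in young SEC-like and 0.471 CPM in young AEC-like cells, but 16.6 and 97.4 CPM in old ones, the opposite order. Ltbp2 was 9.39 CPM in young SEC-like and 0 CPM in young AEC-like cells, and 0.155 and 10.4 CPM in old ones. A single cell held all of the young SEC-like counts of Ltbp2, and another held 98.3% of the old AEC-like ones. Ltbp2 and Tgfb3 are among the guide genes that define the endothelial clusters, so their values by cluster are a description. Only 7 young and 19 old AEC-like cells lie in that range. Tgfb2 was 83.2 and 50.9 CPM in young and old AEC and 3.74 and 47 CPM in SEC (log2 1.40). Tgfb3 was 52.7 and 280 CPM against 11.7 and 24.5 CPM (log2 3.14), and without the endothelial cells that carried under 5 of 10 endothelial markers it turned to -1.63, a setting chosen after seeing the data. In range 3, 93.1% of its old AEC counts lay in 1 cell of the pericyte cluster E2 and 85% of its young ones in 1 cell, and AEC-like cells of that range held 0.703 CPM in old mice. Without the top cell of each group Tgfb3 was 8.27 and 20.4 CPM in young and old AEC against 9.09 and 15.8 CPM in SEC, and Tgfb2 67 and 23.8 against 2.49 and 30 CPM, so that both overlapped. Tgfb1 (127 CPM against 228 CPM), Tgfbr2 (291 CPM against 553 CPM) and Tgfbr3 (229 CPM against 434 CPM) were higher in SEC without overlap but below 2-fold, whereas Tgfbr1 and Ltbp3 overlapped. The Tgfb2 call was lost in old cells alone, with the mean over cells and without the cells of under 5 endothelial markers, and the Ltbp1 call in old cells alone, after thinning and without endothelial cells that carried mesenchymal markers.

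Between all mesenchymal and all endothelial cells no member was called, against 0.506% of 19770 genes called higher in mesenchymal and 1.76% called higher in endothelial cells. The populations within each lineage spread too widely for that. Ltbp2 had the largest difference in summed level (329 CPM against 17.1 CPM, log2 4.19), yet MSC-S values went down to 9.19 CPM and SEC values reached 63.6 CPM. Ltbp1 (390 CPM against 72.8 CPM, log2 2.41) and Ltbp3 (222 CPM against 40.1 CPM, log2 2.44) had higher mesenchymal sums, and so did Tgfb3 (94.3 CPM against 31.9 CPM, log2 1.53), with overlapping values. Ltbp4 (401 CPM against 1274 CPM, log2 -1.66), Tgfb1 (56.2 CPM against 155 CPM, log2 -1.45) and Tgfbr2 (224 CPM against 456 CPM, log2 -1.02) had higher endothelial sums, also with overlap. Tgfbr3 (0.80), Tgfbr1 (0.60) and Tgfb2 (0.27) stayed under 1 in log2 difference, and the members had a median of 0.70 against -0.04 for all tested genes. No member thus separated the lineages in every population. Median-of-ratios scaling moved the median of all genes here by 0.108.

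With age, members were called in every population but AEC, and which members were called differed between populations. Old MSC-L held less Tgfb2 and more of the 2 signaling receptors. Old MSC-S held more Ltbp1. Old OPr held less Tgfb2 and more Ltbp2, while old mOPr held more Ltbp1 and less Ltbp3, Tgfb1 and Tgfb3. Old SEC held more Ltbp4, Tgfb2 and Tgfb3 and less Ltbp2. Tgfbr3 was called in no population, with log2 differences from -0.28 to 0.37.

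**Figure D3:**
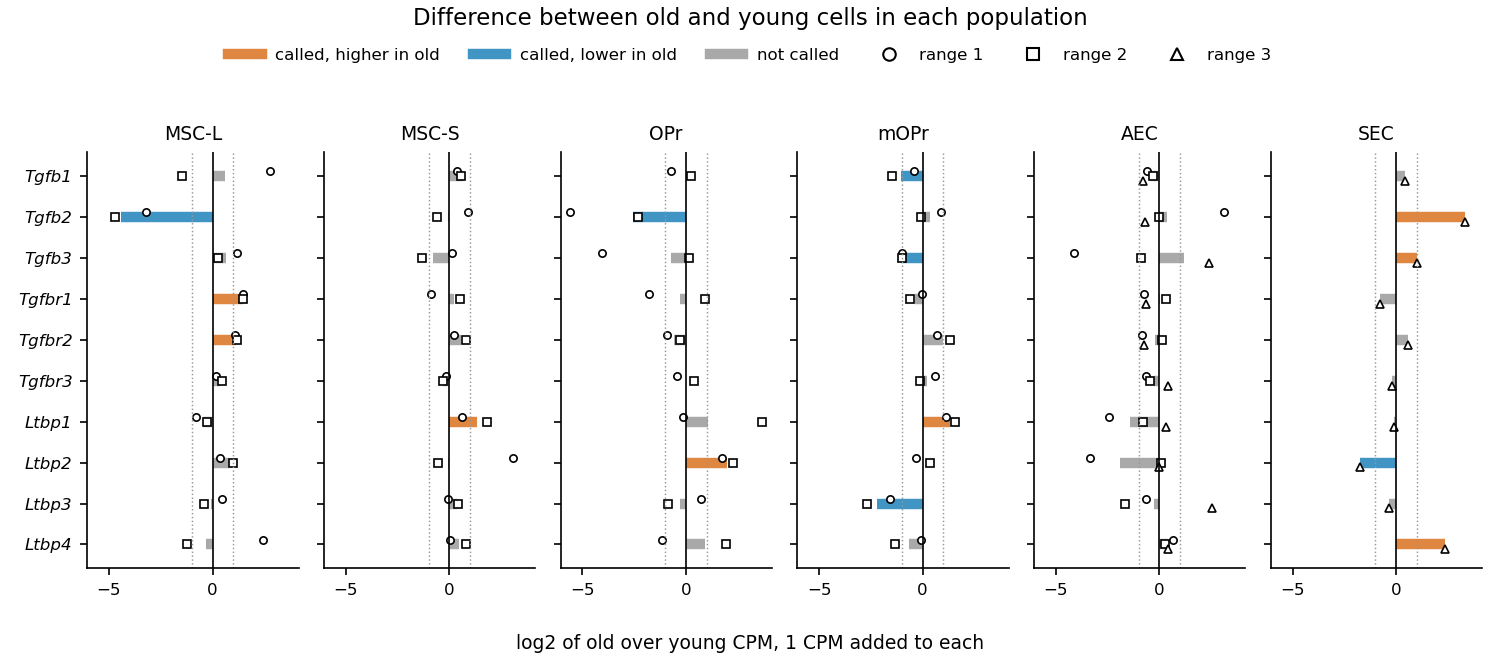
Difference between old and young cells in each population as log2 of old over young CPM (bars) with the value within each library-number range (points). Dotted lines mark a 2-fold difference.

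In MSC-L, 2 members were called higher and 1 lower in old cells, against 10.5% and 8.66% of 13143 genes tested, and the median log2 difference was 0.48 for members and 0.01 for all tested genes. The ligand Tgfb2 fell: its level was 9.64 and 42.2 CPM in young cells of ranges 1 and 2 and 0.146 and 0.634 CPM in old cells. Over both ranges that was 30.5 CPM (interval 28.3 to 32.9) and 0.462 CPM (interval 0.211 to 0.876), a log2 difference of -4.43. Few cells bore this ligand even in young mice: 5 of 53 young cells (9.43%) and 0 of 58 old cells carried it at 10 CPM or more, and thinned shares were 9.43% and 7.14%. In range 1 alone the difference was -3.22 and not called. Among MSC-L-like cells of any gate, 28.7 CPM in young and 31.2 CPM in old cells gave a log2 difference of 0.12, where 14 MSC-L-like cells from the old mOPr gate held 128 CPM and 56 from the old MSC-L gate 0.473 CPM.

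Receptors moved the other way in MSC-L. The kinase gene Tgfbr1 was 30.4 and 22.9 CPM in young and 85.1 and 65.2 CPM in old cells of the 2 ranges, without overlap (log2 1.46). Tgfbr2 was 54.1 and 83.5 CPM in young and 115 and 188 CPM in old cells (log2 1.14). So the levels of both parts of the signaling receptor were higher in old MSC-L, while the shares of carrying cells overlapped in their intervals. For Tgfbr1 32.1% of young (19.9 to 46.3) and 43.1% of old cells (30.2 to 56.8) carried it (30.2% and 42.9% thinned). For Tgfbr2 these were 47.2% (33.3 to 61.4) and 53.4% (39.9 to 66.7), or 52.8% and 55.4% thinned. Both together were found in 13.2% of young and 14.3% of old cells after thinning. The median cell held 0 CPM of Tgfbr1 at each age, and 8.08 and 13.8 CPM of Tgfbr2 in young and old cells. In the MSC-L-like group neither was called, with log2 differences of 0.75 and 0.92. Betaglycan (698 and 900 CPM, log2 0.37), Ltbp2 (565 and 975 CPM, log2 0.79), Ltbp1 (log2 -0.44), Ltbp3 (-0.09) and Tgfb3 (0.64, ranges 1.20 and 0.26) were not called. For Tgfb1, 29.3 CPM in young and 44.6 CPM in old cells, 63.5% of the old counts lay in 1 cell (log2 0.59, ranges 2.77 and -1.49, -0.34 without the top cells). Ltbp4 counts were as uneven, with 90.7% of the young counts in 1 cell (log2 -0.30, ranges 2.46 and -1.25, 2.49 without the top cells), and in MSC-L-like cells it was called higher in old cells (2.68 and 21.2 CPM, log2 2.59). All 6 megakaryocyte and platelet markers had counts at both ages, summing to 12.8 CPM in young and 1070 CPM in old MSC-L with Ppbp the most abundant (580 CPM), and their part in these differences was not tested.

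In MSC-S, 1 member was called higher and 0 lower in old cells, against 6.38% and 8.12% of 13381 genes, with a median log2 difference of 0.29 for members and -0.06 for all tested genes. Ltbp1, the main matrix tether, rose. Its level was 335 and 166 CPM in young and 518 and 586 CPM in old cells of ranges 1 and 2, with no overlap between ages (log2 1.33). The share of MSC-S carrying it was 61% in young and 66.1% in old cells (67.8% and 76.3% thinned), so the level differed more than the share of cells. Cluster M9, 10 old MSC-S, held 1728 CPM. In range 1 alone the Ltbp1 difference was 0.63 and not called. The ligands and receptors were not called, with log2 differences for Tgfb1 (0.64), Tgfb2 (-0.06), Tgfb3 (-0.76, ranges 0.16 and -1.33), Tgfbr1 (0.22), Tgfbr2 (0.58) and Tgfbr3 (-0.28). Nor were the other binders, Ltbp2 (-0.07, ranges 3.08 and -0.53), Ltbp3 (0.35) and Ltbp4 (0.46). Between young and old MSC-S the osteoprogenitor markers went from 1028 to 189 CPM and the MSC-L markers from 548 to 1209 CPM. Their part in these differences, and in the list calls of MSC-S below, was not tested.

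In OPr, the committed osteoprogenitors, 1 member was called higher and 1 lower in old cells, against 18.2% and 16.5% of 13418 genes, with a median log2 difference of -0.13 for members and 0.14 for all tested genes. Tgfb2 fell and Ltbp2 rose. The cells sorted as old OPr were a mixture of 10 MSC-L-like and 19 OPr-like cells, the 8 with hematopoietic markers among the latter. Tgfb2 was 58.5 and 160 CPM in young and 0.232 and 31.4 CPM in old OPr of ranges 1 and 2 (log2 -2.56), without overlap. It was carried by 63.6% of young and 10.3% of old OPr (62.8% and 11.1% thinned), and 1 old cell held 62.3% of the old counts (log2 -3.58 without the top cell at each age). This ligand was also lower in OPr-like cells of any gate, at 146 CPM in young and 12 CPM in old cells (log2 -3.50), and in old OPr without the 8 cells (log2 -2.17). Ltbp2 was 162 and 103 CPM in young and 549 and 497 CPM in old OPr (log2 2.00, or 2.41 without the 8 cells). Its rise went with the MSC-L-like cells: these held 1152 CPM in old OPr, and the OPr-like cells 0.849 CPM. In OPr-like cells of any gate Ltbp2 had the opposite direction, 55.4 CPM in young and 2.41 CPM in old cells (log2 -4.05).

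Other members of OPr were not called as sorted. Ltbp1 was 149 CPM in young and 310 CPM in old cells (log2 1.05), with range values of -0.15 and 3.69, and it was called without the 8 hematopoietic-marker cells (log2 1.46) and in OPr-like cells of any gate (117 and 310 CPM, log2 1.39). Those 8 cells held 1.31 CPM of Ltbp1 and 0.933 CPM of Tgfbr3, against 414 and 551 CPM in the other 21 old cells. In those 8 cells most members of the pathway were thus nearly absent, yet Tgfb1 (82.7 against 67.3 CPM), Tgfbr2 (147 against 134 CPM) and Tgfbr1 (33.6 against 42.9 CPM) were present, with 51.9, 90 and 77.8% of their counts in a single cell of the 8. Tgfb1 (log2 0.05 with and -0.02 without the 8 cells), Tgfb3 (-0.72 and -0.31, ranges -4.08 and 0.15, -1.97 without the top cells), Tgfbr1 (-0.27 and -0.19, ranges -1.80 and 0.93), Tgfbr2 (-0.59 and -0.62) and Tgfbr3 (0.01 and 0.42) were called with neither set of cells, where range values and those without the top cells include the 8 cells. Ltbp3 (-0.28 and 0.13) and Ltbp4 (0.92 and 1.32, ranges -1.15 and 1.92, 0.09 without the top cells) were not called either, although Ltbp3 was lower in old OPr-like cells of any gate (log2 -1.42, with those 8 cells among them). Median-of-ratios scaling moved the median of all genes by -0.15 in OPr and -0.16 in mOPr.

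In multipotent mOPr, 1 member was called higher and 3 lower in old cells, against 17.8% and 16.2% of 11237 genes, with a median log2 difference of -0.15 for members and 0.11 for all tested genes. Here the calls covered 2 ligands and 2 binders, and no receptor. The sorted cells differed in cluster as well: 16 of 26 young cells were MSC-S-like and 2 MSC-L-like, whereas 14 of 26 old cells were MSC-L-like and none MSC-S-like. Ltbp3 fell, from 299 and 357 CPM in young cells of ranges 1 and 2 to 99.2 and 54.2 CPM in old cells (log2 -2.19). Its share of carrying cells was 88.5% in young and 61.5% in old mOPr (96.2% and 53.8% thinned). Ltbp1 rose, from 232 and 179 to 502 and 530 CPM (log2 1.34), and 34.6% of young and 92.3% of old cells carried it (42.3% and 96.2% thinned). Within the gate, the 16 young MSC-S-like cells held 425 CPM of Ltbp3 and 57.5 CPM of Ltbp1, the 14 old MSC-L-like cells 92.3 and 488 CPM, and the 12 old OPr-like cells 48 and 554 CPM. Ltbp3 is among the guide genes that define the mesenchymal clusters, so its values by cluster are a description. Within OPr-like cells the differences had the same directions: the 8 young ones of the gate held 87.1 CPM of Ltbp3 and 199 CPM of Ltbp1, and in OPr-like cells of any gate Ltbp3 was called lower (log2 -1.42) and Ltbp1 higher (1.39) in old cells. The old OPr-like cells of any gate include the 8 hematopoietic-marker cells of old OPr. Those held 0.187 CPM of Ltbp3 and 1.31 CPM of Ltbp1, and no value of the group without them is given. In MSC-L-like cells of any gate neither was called (log2 0.14 and -0.57), and in MSC-S-like cells Ltbp1 was called higher (1.66) and Ltbp3 was not called (0.32).

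Tgfb1 and Tgfb3 fell by less than Ltbp3 in mOPr. Tgfb1 was 52.4 and 90.1 CPM in young and 38.4 and 31.7 CPM in old cells (log2 -1.05). Tgfb3 was 136 and 99 CPM in young and 68.6 and 48.7 CPM in old cells (log2 -1.04). Each age held its own span of values without overlap, but both differences lay close to the 2-fold limit, and in range 1 alone neither was called. With the mean over cells Tgfb1 (-0.66) and Ltbp1 (0.98) lost their calls in log2 difference, as Tgfb3 did after thinning (-0.87), and 1 young cell held 43.4% of the young Ltbp1 counts (log2 2.02 without the top cell at each age). Tgfb2 (log2 0.38), Tgfbr1 (-0.35), Tgfbr2 (0.96, ranges 0.69 and 1.34), Tgfbr3 (0.22), Ltbp2 (0.04) and Ltbp4 (-0.68, ranges -0.10 and -1.31) were not called. Tgfbr2 came closest, at 129 CPM in young and 253 CPM in old mOPr.

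AEC had no member call in either direction, against 3.98% of 14042 genes called higher and 6% called lower in old cells, with a median log2 difference of -0.22 for members and -0.03 for all tested genes. A call in AEC had to agree in 3 ranges, against 2 in mesenchymal cells and 1 in SEC, so these shares are not compared between populations. Ltbp4, the leading binder of these cells, was 1456, 1643 and 1559 CPM in young and 2336, 2018 and 2097 CPM in old cells of the 3 ranges (log2 0.42). All 3 old values lay above all 3 young values, with a difference below 2-fold, and 94% and 93.9% of cells carried it (96.4% and 96.3% thinned). Tgfb1 (log2 -0.40), Tgfb2 (0.35, ranges 3.11, -0.03 and -0.70), Tgfbr1 (0.02), Tgfbr2 (-0.20), Tgfbr3 (-0.24) and Ltbp3 (-0.24, ranges -0.64, -1.65 and 2.53) differed by less than 2-fold in the sums. Ltbp1 (101 and 37.2 CPM, log2 -1.41, ranges -2.43, -0.81 and 0.35) and Ltbp2 (3.96 and 0.344 CPM, log2 -1.88, ranges -3.37, 0.09 and 0.01, -0.99 without the top cells) passed 2-fold in the sums but not in every range. Without endothelial cells that carried at least 7 of 12 mesenchymal markers Ltbp1 was called lower (log2 -1.53). Tgfb3, at 24.4 CPM in young and 56.5 CPM in old cells (log2 1.18, ranges -4.10, -0.88 and 2.39), turned to -0.80 once the top cell at each age was left out and was called lower (-3.74) without the cells of under 5 endothelial markers.

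In SEC, 3 members were called higher and 1 lower in old cells, against 12.7% and 7.36% of 12982 genes, with a median log2 difference of 0.18 for members and 0.05 for all tested genes. Old SEC held more Ltbp4, the leading binder of AEC, and more Tgfb2 and Tgfb3, and they held less Ltbp2. All SEC lie in 1 library-number range, so each age gave 1 value. Ltbp4 was 113 CPM in young (interval 109 to 118) and 592 CPM in old cells (interval 582 to 603), a log2 difference of 2.38. The rise was not shared by most cells: the median cell held 23.5 CPM in young and 6.64 CPM in old SEC, and 54.3% and 46.5% of cells carried it (55.7% and 57.1% thinned). Among old SEC, 8 AEC-like cells held 2522 CPM of Ltbp4 and 12 cells of the transition cluster 1221 CPM, against 160 CPM in the 44 SEC-like cells. Young SEC comprised 59 SEC-like cells, 2 of the transition cluster and 9 of the doublet cluster E1, and none that were AEC-like. Ltbp4 is among the guide genes that define the endothelial clusters, so its values by cluster are a description.

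Tgfb2 was 3.74 CPM in young and 47 CPM in old SEC (log2 3.34), carried by 4.29% and 5.63% of cells (7.14% and 14.3% thinned). Its old level lay in the 8 AEC-like cells at 410 CPM, while the SEC-like cells of the old gate held 0.619 CPM, and 1 old cell held 37.2% of the counts. Tgfb2, Tgfb3 and Ltbp2 are also guide genes of the endothelial clusters, so their values by cluster are a description. Tgfb3 was 11.7 and 24.5 CPM (log2 1.00), at the 2-fold limit. Without the top cell at each age it was 0.74, 1 cell held 36% of the old counts, and with median-of-ratios scaling it lost its call (0.93). Ltbp2 was 63.6 CPM in young and 18.1 CPM in old SEC (log2 -1.75), and the 9 young doublet-cluster cells held 370 CPM of it against 9.66 CPM in the young SEC-like cells. Among SEC-like cells of any gate (61 young, 44 old) Ltbp4 was 115 and 160 CPM (log2 0.47) and Tgfb2 1.56 and 0.619 CPM (-0.66), neither of them called. Of the 4 calls in SEC, the group of SEC-like cells held that of Tgfb3 (2.97 and 26.5 CPM, log2 2.79), where 3 of 61 young and 3 of 44 old cells carried it and 1 cell held 53.5% of the old counts. Ltbp2 was not called in that group but kept its direction, at 9.39 and 0.155 CPM (log2 -3.17), with all of the young counts in 1 cell. The receptors were not called, with log2 differences of -0.78 for Tgfbr1, 0.58 for Tgfbr2 and -0.19 for Tgfbr3, nor were Tgfb1 (0.44), Ltbp1 (-0.09) and Ltbp3 (-0.35). All 6 AEC markers had counts at both ages in SEC, summing to 361 CPM in young and 1312 CPM in old cells with Ly6a the most abundant (528 CPM), and all 6 megakaryocyte and platelet markers summed to 16.8 and 676 CPM, led by Itga2b in old cells. Their part in the member differences of SEC was not tested. All 15 hematopoietic markers also had counts at both ages in SEC, summing to 227 CPM in young and 526 CPM in old cells. Among old SEC 1 cell carried at least 8 of them, and the 4 calls in SEC were also made without that cell.

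The deposited clusters placed members in finer groups. Levels in clusters are a description, as Ltbp3 and Ltbp4 are among the 496 guide genes of the mesenchymal clustering and Tgfb2, Tgfb3, Tgfbr3, Ltbp2 and Ltbp4 among the 680 of the endothelial one. Among clusters of at least 5 cells, Tgfb2 was highest in M3 (209 CPM, OPr-like) and E3 (110 CPM, AEC-like) and nearly absent from the SEC-like cluster E7 (1.18 CPM). Tgfb1 was highest in E7 (260 CPM), and its lowest endothelial value was in the pericyte cluster E2 (45 CPM). AEC-like cells of any gate held 119 CPM of Tgfb1 in young and 102 CPM in old mice, beside 92 and 118 CPM of Tgfb2. Tgfb3 was highest in the pericyte cluster E2 (703 CPM) and in M6 (390 CPM). Tgfbr1 was highest in M12 (169 CPM) and Tgfbr2 in M7 (587 CPM), with 553 CPM of Tgfbr2 in E4. Tgfbr3 marked both MSC-L-like clusters, M1 (724 CPM) and M2 (767 CPM), and was low in the pericytes (47.9 CPM). Ltbp1 was highest in M9 (1728 CPM), a cluster of 10 old cells, where Ltbp4 was 2456 CPM, also the highest mesenchymal value. Ltbp2 was highest in M1 (920 CPM), Ltbp3 in M16 (668 CPM) and endothelial Ltbp4 in E3 (2781 CPM). Ltbp4 was near 0 in M3 (0.0930 CPM), the cluster with the most Tgfb2 among mesenchymal clusters.

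**Figure D4:**
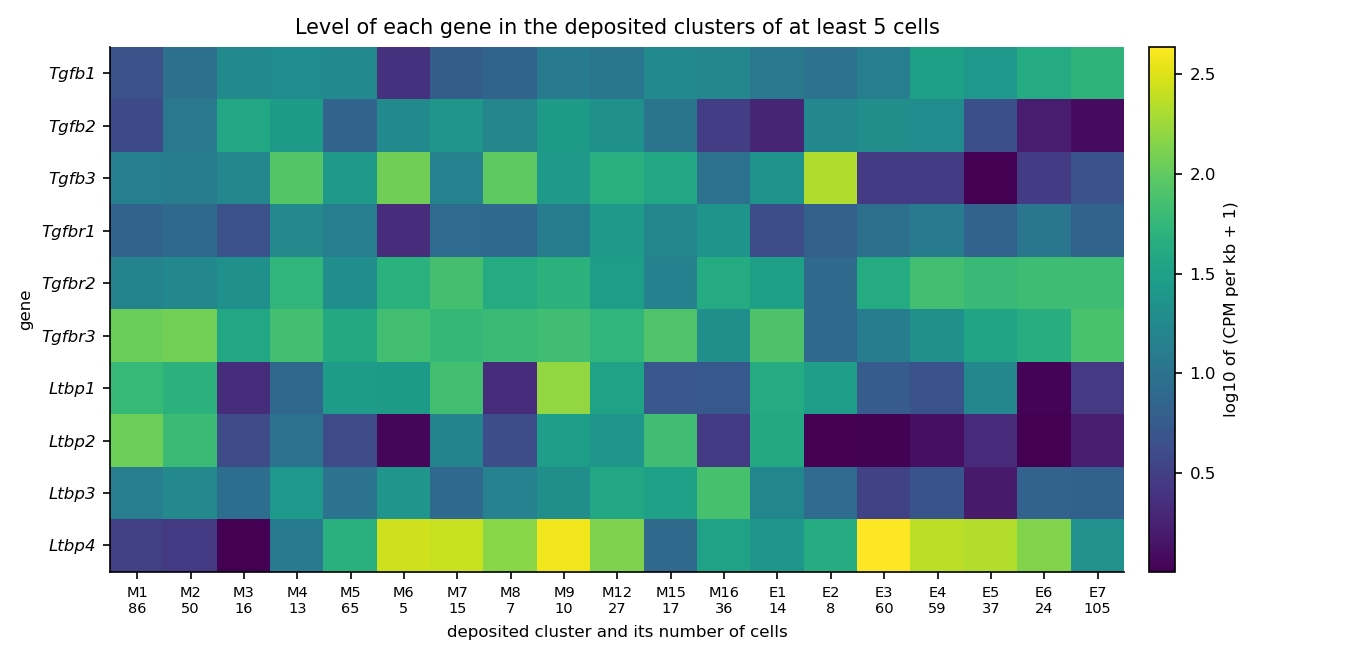
Level per kb of exon of each gene in the deposited clusters of at least 5 cells, on a log scale, with the number of cells under each cluster name. Mesenchymal clusters begin with M and endothelial clusters with E.

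Other genes of the pathway were followed in 4 lists, with log2 differences in brackets: latency and activation (17 genes), accessory receptors and binding proteins (9), SMAD transducers and their inhibitors (15) and response genes (19). In old MSC-L, calls were 3 higher and 1 lower of 15 tested for latency and activation, 1 higher and 1 lower of 9 for accessory receptors, 1 higher and 1 lower of 15 for SMAD genes and 1 higher and 1 lower of 18 for response genes, with medians of 0.07, 0.16, 0.09 and -0.26 against 0.01 for all genes, of which 10.5% were called higher and 8.66% lower. Lrrc32 (2.99), which holds latent ligand at the cell surface, Itgb8 (2.38), an integrin chain that helps to release it, and Thbs1 (1.26), a thrombospondin that can activate it, rose, as did Lrg1 (3.86), Skil (1.04) and the response gene Id1 (2.55), whereas Fn1 (-1.0), Fmod (-2.84), Smurf1 (-1.44) and Tgfbi (-1.97) fell. The megakaryocyte and platelet markers rose in the same cells, from 12.8 to 1070 CPM, and their part in these calls was not tested. In old MSC-S, Lrrc32 (2.52) rose and Fmod (-1.17), Acta2 (-3.05) and Postn (-1.35) fell, which left 1 higher and 0 lower of 14, 0 higher and 1 lower of 9, 0 higher and 0 lower of 15 and 0 higher and 2 lower of 19 tested in list order, and medians were 0.13, 0.00, -0.01 and -0.19 against -0.06 for all genes, of which 6.38% were called higher and 8.12% lower. In old AEC, Itgb3 (1.80) and Bmp1 (1.23) rose, with 2 higher and 0 lower of 13, 0 higher and 0 lower of 9, 0 higher and 0 lower of 15 and 0 higher and 0 lower of 18 tested and medians of 0.05, 0.20, -0.13 and 0.12 against -0.03 for all genes, of which 3.98% were called higher and 6% lower.

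Most response genes were called lower in old OPr, 12 of 19, or 13 of 19 without the 8 hematopoietic-marker cells. Calls there were 3 higher and 3 lower of 16, 2 higher and 2 lower of 9, 1 higher and 0 lower of 15 and 2 higher and 12 lower of 19 tested in list order, and medians were 0.43, -0.52, 0.05 and -1.54 against 0.14 for all genes, of which 18.2% were called higher and 16.5% lower. Old OPr also differed from young OPr in cell mixture: 10 of 29 old cells were MSC-L-like, MSC-L markers went from 5589 to 22695 CPM and the 12 mesenchymal markers from 13154 to 3540 CPM, and the part of this mixture in the list calls was not tested. The named response genes were Nox4 (-5.02), Col3a1 (-4.07), Postn (-3.68) and Col1a1 (-3.62), all lower, and Acta2 (6.89), higher. In the same cells the latency genes Mmp9 (9.45) and Nrros (5.19) rose and Itgb8 (-3.07), Fn1 (-2.55) and Mmp2 (-2.07) fell, the accessory genes Lrg1 (6.51) and Acvrl1 (3.58) rose and Fmod (-2.79) and Dcn (-2.43) fell, and the SMAD inhibitor Smad6 (2.18) rose. Mmp9 is abundant in neutrophils, and its level went from 0.102 to 770 CPM in sorted OPr. Without the 8 cells Mmp9, Nrros and Acta2 were no longer called, Thbs1, outside the 5 largest of its list as sorted, turned from called higher (log2 1.08) to called lower (-1.44), and the counts were 0 higher and 4 lower of 15, 3 higher and 2 lower of 9, 1 higher and 0 lower of 15 and 1 higher and 13 lower of 19 tested in list order, and medians were 0.68, -0.11, 0.06 and -1.31 against 0.22 for all genes, of which 2322 of 12980 were called higher and 2027 lower. The latency genes Itgb8 (-2.71), Fn1 (-2.13), Mmp2 (-1.66) and Thbs1 (-1.44), the accessory genes Fmod (-2.37) and Dcn (-2.02) and the response genes Nox4 (-4.97), Col3a1 (-3.66), Postn (-3.27), Col1a1 (-3.21) and Timp1 (-2.76) fell without the 8 cells, and Lrg1 (4.29), Acvrl1 (2.34) and Eng (1.03) and Smad6 (2.57) rose. In old mOPr, calls were 1 higher and 2 lower of 13, 1 higher and 2 lower of 8, 2 higher and 2 lower of 15 and 1 higher and 7 lower of 18 tested in list order, and medians were -0.39, -0.26, 0.34 and -0.51 against 0.11 for all genes, of which 17.8% were called higher and 16.2% lower. Its cell mixture differed as well, with MSC-L markers at 998 CPM in young and 21133 CPM in old cells and 16 and 0 MSC-S-like cells, and its part in these calls was not tested. Among latency genes of mOPr Itgb8 (2.90) rose and Fn1 (-4.37) and Thbs1 (-2.30) fell, and among accessory genes Acvrl1 (1.97) rose and Fmod (-6.83) and Bambi (-1.28) fell. SMAD genes of mOPr split, Trim33 (1.68) and Smad7 (1.00) higher and Usp15 (-1.38) and Pmepa1 (-1.25) lower, while the response gene Tnc (1.29) rose and Nox4 (-2.93), Col3a1 (-2.89), Ldlrad4 (-2.34) and Ctgf (-1.51) fell. In old SEC, the latency and activation genes Itgb3 (5.10), Fn1 (4.93), Thbs1 (3.37), Itgb5 (1.5) and Mmp2 (1.06) rose and none fell. In these cells the megakaryocyte and platelet markers also went from 16.8 to 676 CPM, led by Itga2b (378 CPM), the partner chain of Itgb3, and their part in the list was not tested. The response genes Acta2 (3.93) and Col1a1 (1.91) rose and Col1a2 (-1.51), Bhlhe40 (-1.33) and Col3a1 (-1.08) fell, and calls in SEC were 5 higher and 0 lower of 13, 0 higher and 0 lower of 8, 0 higher and 0 lower of 15 and 2 higher and 3 lower of 17 tested in list order, and medians were 0.59, -0.03, 0.09 and 0.08 against 0.05 for all genes, of which 12.7% were called higher and 7.36% lower.

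Between cell types the same lists held large differences. Cells with markers of other cell types were kept here. Among SEC, 8 young and 4 old cells carried mesenchymal markers, and some AEC lie in the pericyte cluster E2. Their part in the list calls was not tested. MSC-S exceeded MSC-L in the latency genes Fn1 (-9.48), Mmp2 (-4.19) and Itgb5 (-1.5), in Fmod (-6.64), Dcn (-4.61) and Lrp1 (-1.39), in Tgif1 (-2.87) and Smad3 (-1.93) and in Nox4 (-4.71), Cdkn1a (-4.21), Tgfbi (-4.08), Col3a1 (-3.87) and Col1a1 (-3.29), while MSC-L exceeded MSC-S in Smad6 (1.55) and Trim33 (1.21). Calls of MSC-L over MSC-S were 0 higher and 3 lower of 15, 0 higher and 3 lower of 9, 2 higher and 2 lower of 15 and 2 higher and 8 lower of 19 tested in list order, and medians were -0.21, -0.47, -0.15 and -1.71 against 0.38 for all genes, of which 13.5% were called higher and 7.72% lower. AEC exceeded SEC in Fn1 (5.88), Mmp2 (1.33) and Bmp1 (1.20), in Smad7 (1.90), Pmepa1 (1.46) and Ski (1.31) and in Acta2 (6.30) and Tagln (4.89), and SEC exceeded AEC in Mmp14 (-2.02) and Nrros (-1.13), in Lrg1 (-2.76), Bgn (-1.92) and Tgfbrap1 (-1.10) and in Tnc (-6.64), Tgfbi (-4.45) and Col1a2 (-3.01), with calls of 3 higher and 2 lower of 13, 0 higher and 3 lower of 8, 3 higher and 0 lower of 15 and 6 higher and 5 lower of 18 tested in list order, and medians were 0.43, -0.47, 0.39 and 0.61 against -0.10 for all genes, of which 10.7% were called higher and 18.1% lower. Mesenchymal cells exceeded endothelial cells in Bmp1 (2.66), Dcn (8.56) and Lrp1 (4.44), Pmepa1 (2.04) and Col1a1 (6.09) and Col1a2 (5.13), and endothelial cells held more Lrrc32 (-4.30) and Lrg1 (-6.30), Eng (-4.90) and Acvrl1 (-2.93), with calls of 1 higher and 1 lower of 16, 2 higher and 3 lower of 9, 1 higher and 0 lower of 15 and 2 higher and 0 lower of 19 tested in list order, and medians were 2.35, -1.06, -0.08 and 1.93 against -0.04 for all genes, of which 0.506% were called higher and 1.76% lower. Although no member separated the lineages over both ages together, the co-receptor Eng and the surface anchor Lrrc32 did.

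The genes most like each member were found by correlation of log2 CPM over the 12 population and age sums, which share libraries and depth, among 13341 genes of at least 1000 counts. For the ligands these were Upp1 (0.937) and E130012A19Rik (0.936) for Tgfb1, Myl6 (0.861), Atf3 (0.856) and Vwa1 (0.856) for Tgfb2 and RP23-403P6.1 (0.954), 1810055G02Rik (0.936) and Scrn1 (0.935) for Tgfb3. For the receptors they were Usp2 (0.894), Adamtsl4 (0.886) and Slc6a8 (0.872) for Tgfbr1, Ralgds (0.912), Sema4c (0.912) and E2f6 (0.910) for Tgfbr2 and Mdga1 (0.943), Abat (0.938) and P2rx4 (0.925) for Tgfbr3. For the binders they were C1s1 (0.976), Arhgap24 (0.976) and Serping1 (0.942) for Ltbp1, Phgdh (0.975), Tnc (0.972) and Sgcd (0.971) for Ltbp2, Loxl2 (0.952), Zfp385a (0.940) and Angptl1 (0.936) for Ltbp3 and Cd34 (0.954), Ptrf (0.951) and Glns-ps1 (0.948) for Ltbp4. Coefficients were highest for Ltbp1 and Ltbp2 and lowest for Tgfb2. Between members, Ltbp1 went with Ltbp2 (r = 0.845 over 12 sums), Ltbp2 with Tgfbr3 (0.828) and Tgfb1 with Tgfbr2 (0.762), while Ltbp4 opposed Tgfbr3 (-0.867) and Ltbp2 (-0.758), Tgfb1 opposed Ltbp1 (-0.774) and Tgfbr2 opposed Ltbp2 (-0.711). Betaglycan and Ltbp2 thus followed MSC-L, and Ltbp4 ran opposite to them.

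Tgfb2, Tgfb3 and Ltbp4 were called higher both in AEC over SEC and in old over young SEC, and promoter windows are shown for Tgfb2 and Ltbp4, the 2 of them with an entry. The 2 comparisons share the SEC cells. Without the top cell of each group the AEC and SEC values of Tgfb2 and of Tgfb3 overlapped. RefSeq windows from 250 bases before to 50 after the start (build GRCm38.p6) were found for 8 of the 10 members, in 12 windows, and for neither Tgfb3 nor Tgfbr3. Capitals mark matches, on either strand, to 6 motifs: the cAMP response element TGACGTCA (in 1.79% of 32851 promoter windows), the AP-1 site TGAGTCA (5.20%), the SMAD-binding box GTCTG (49.6%), the E-box CACGTG (7.15%), the TATA box TATAAA (13.6%) and the GC box GGGCGG (35.7%). The Tgfb2 window (chr1:186705940-186706239, minus strand, 54.3% GC) held 2 SMAD-binding boxes, both as CAGAC, 1 E-box and 1 TATA box. The first Ltbp4 window of 3 (chr7:27337563-27337862, minus strand, 64.3% GC) held 3 GC boxes. The 2 windows shared none of the 6 motifs, and a match is a description only.
Tgfb2: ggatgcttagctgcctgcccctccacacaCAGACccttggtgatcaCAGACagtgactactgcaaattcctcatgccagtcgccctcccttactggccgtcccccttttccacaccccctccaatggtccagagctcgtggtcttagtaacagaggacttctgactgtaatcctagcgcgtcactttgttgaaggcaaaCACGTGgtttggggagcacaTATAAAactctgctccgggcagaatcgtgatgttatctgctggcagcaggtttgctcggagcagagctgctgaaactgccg
Ltbp4: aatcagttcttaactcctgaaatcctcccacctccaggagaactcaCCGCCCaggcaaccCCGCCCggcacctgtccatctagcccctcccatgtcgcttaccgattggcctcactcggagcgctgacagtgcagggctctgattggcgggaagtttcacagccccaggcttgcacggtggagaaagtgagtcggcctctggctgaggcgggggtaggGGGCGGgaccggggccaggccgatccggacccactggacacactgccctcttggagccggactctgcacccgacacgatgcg

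Counting without strand could affect the counts of members whose exons overlap other genes, and the size and direction of that effect were not tested. Ltbp2 shares 764 bp with D030025P21Rik (1.41 CPM over all cells), and Tgfb2 and Tgfb3 overlap Gm29491 and Gm37804, both below 1 CPM.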

How the data were processed

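Reads had been aligned by the authors using GSNAP against GRCm38.p4 (Ensembl 81) and assigned to genes by HTSeq ignoring strand, and the deposited counts were used here without change. Repeated symbols were summed, each column was joined to the labels of its cell, and nuclear counts were summed by population and age. Levels, intervals (exact Poisson, Clopper-Pearson and conditional binomial) and log2 ratios with 1 CPM added were computed with Python 3.11.15, numpy 2.4.6, pandas 2.3.3 and scipy 1.17.1, and figures drawn with matplotlib 3.10.9. Exon lengths came from GENCODE M21. The upper limit for a share of 0 is 3 cells of the total. A call needed 100 counts or more and 5 cells or more with a count. Members and lists were chosen with earlier results of these data known. Named genes were the 10 members, the called genes of each list (at most the 5 largest) and the 3 most similar genes. Results that need 3 further genes are not reported here, and 1 of these was taken off the response list before the final run. Alternatives varied scaling, depth, filter, pseudocount, fold, cells left out, ages, library-number ranges and identity groups, and 1 was added after seeing the data: leaving out endothelial cells with under 5 endothelial markers.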

Additional observations from a re-analysis of the deposited data

Results flagged for a closer look

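Calls for 3 members went in opposite directions with age in different populations, and that is what set these values apart. Tgfb2 fell in old MSC-L (log2 -4.43) and old OPr (-2.56) and rose in old SEC (3.34). Tgfb3 fell in old mOPr (log2 -1.04) and rose in old SEC (1.00). Ltbp2 rose in old OPr (log2 2.00) and fell in old SEC (-1.75). Identity groups did not keep all of these oppositions: the Tgfb2 log2 difference was 0.12 for MSC-L-like cells, -3.50 for OPr-like cells and -0.66 for SEC-like cells, and that of Ltbp2 was -4.05 for OPr-like cells and -3.17 for SEC-like cells. Tgfb2 and Ltbp2 are among the guide genes that define the endothelial clusters, so their SEC-like values are a description. Each population at each age was 1 sample, so the difference between populations was not tested.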

How the results depend on the processing

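Across all members, 79 of 98 counts of calls under other settings stayed within 1.5 times the count given above and 19 did not. At 1.5-fold the counts were 5 in MSC-L, 2 in MSC-S and 8 for AEC against SEC. Range 1 alone gave 5 in MSC-L, 5 in OPr, 2 in mOPr and 4 in AEC, range 2 alone gave 2 in MSC-S, 4 in OPr and 1 in AEC, and range 3 alone gave 2 in AEC. Identity groups in place of gates gave 1 call in MSC-L, 4 in OPr and 1 in SEC, and no value for mOPr. The mean over cells gave 2 in mOPr. In AEC, leaving out cells with markers of the other lineage gave 1, and leaving out endothelial cells with under 5 endothelial markers, a setting chosen after seeing the data, gave 1. Young cells alone gave 2 and old cells alone 2 for mesenchymal against endothelial cells. Of the called log2 differences 4 took the opposite sign: in the identity groups Tgfb2 in MSC-L (0.12), Ltbp2 in OPr (-4.05) and Tgfb2 in SEC (-0.66), and without cells of under 5 endothelial markers Tgfb3 in AEC against SEC (-1.63). The cause was not tested. Of 660 log2 differences between ages 368 stayed within their interval, 289 moved beyond it and 3 called ones reversed, and of 320 between cell types 161 stayed, 158 moved and 1 called one reversed. Among differences that were not called, and counted here as stayed or moved, 66 between ages and 3 between cell types also changed sign. Of 60 shares of cells 56 stayed within their interval after thinning, and of 36 ligand shares 11 stayed with the mean over cells. SEC lie in range 3 alone, so they have no separate value by range. Each group was 1 sample, depth limits rare transcripts, since 7 cells held too few counts to be thinned, and intervals cover counting error alone. No paired analysis was possible because the labels name no mouse.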
